A study of Mus musculus with 11 samples.

Results

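The Hox genes of the mouse were followed through RNA-Seq libraries of DRGs, the ganglia along the spine that hold the cell bodies of sensory neurons. Members were taken by name alone: every row named Hoxa, Hoxb, Hoxc or Hoxd followed by a number, without antisense names. This gave 36 members among 36670 genes. The mouse has 39 Hox genes, and Hoxb1, Hoxb13 and Hoxd12 were not analysed here. The Hoxa cluster on chromosome 6 held 11 members, the Hoxb cluster on chromosome 11 held 8, the Hoxc cluster on chromosome 15 held 9 and the Hoxd cluster on chromosome 2 held 8. All 36 were found in GENCODE M21, and 34 had the same coordinates there.

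The 11 libraries fell into 4 groups by genotype and treatment. WT mice gave 3 control libraries and 3 libraries taken 4 weeks after paclitaxel (PTX), and mice with the Gpr37l1 KO gave 3 control and 2 PTX libraries at the same time. Paclitaxel is used in chemotherapy and was given i.p. in this study to cause neuropathic pain. Gpr37l1 encodes a receptor of the satellite glia around sensory neurons. The KO line comes from the B6;129S5-Gpr37l1tm1Lex/Mmucd strain, kept on a C57BL/6 background with littermates, and the deletion is not restricted to a cell type. A stranded protocol was used on poly(A) RNA, and library 3 of each group was labelled female while the others were labelled male. The study's methods describe adult mice for behavior and biochemistry. The age of the sequenced mice, how many ganglia each library holds and the spinal levels they came from are not given in the sources used here. The titles number the libraries as separate samples, and p-values measure the spread between these samples only.

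Hox genes encode transcription factors that give cells along the body axis their regional identity. Each of the 4 clusters carries paralogs numbered from 1 at the anterior end to 13 at the posterior end, and a paralog group is the set of genes with one number. Along the trunk a cell keeps the genes of its own level and of more anterior levels switched on. In general terms the low numbers belong to hindbrain and neck, the middle numbers to the forelimb and thoracic levels, group 10 to the lumbar levels that supply the hind limb and group 11 to the lumbosacral transition. Groups 12 and 13 belong to the tail end of the body. Adult sensory neurons and the cells around them retain much of this code, so the level of posterior Hox RNA in a pool of ganglia can serve as an index of where along the spine they lay.

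Total estimated counts per library ran from 52735648 to 80348732 with a median of 75538569. Gpr37l1 was at 14.6 to 35.7 FPKM in the 6 WT libraries and at 0.21 to 1.15 FPKM in the 5 KO libraries. FPKM is a fragment count scaled for gene length and library size. It does not correct for differences in RNA composition, so comparisons of FPKM between libraries are approximate. Of 10 markers of sensory neurons 9 were in the table, and their summed level was 2240 to 3018 FPKM. The 6 satellite glia markers summed to 1057 to 1498 FPKM and the 6 markers of myelinating Schwann cells to 1218 to 2147 FPKM. KO PTX 3 stood apart in central nervous tissue markers, and the libraries differed widely in skeletal muscle markers. Both are given below beside Hox values. In RNA from whole ganglia, fewer cells of a type and less RNA per cell cannot be told apart.

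Most Hox RNA in these ganglia came from genes of the trunk, beside a high level of the anterior gene Hoxd1. Summed over the members, it came to 95.9 ± 10.2 FPKM (SD, n = 11). The Hoxd cluster held 30.3% of the sum on average, Hoxa 28.5%, Hoxb 27.2% and Hoxc 14.02%. By paralog number, group 9 was the highest with 18.1 ± 2.52 FPKM, followed by group 7 with 14.7 ± 1.63 and group 8 with 14.02 ± 1.65 FPKM. Group 10 reached 9.22 ± 2.26 FPKM, less than Hoxd1 alone with a mean of 12.2 FPKM. The sum then dropped to 0.565 ± 0.413 FPKM for group 11, with a range of 0.02 to 1.23. Group 12 averaged 0.0045 FPKM and group 13 averaged 0.0155 FPKM. The profile therefore reached group 10 in every library and faded within group 11.

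**Figure D1:**
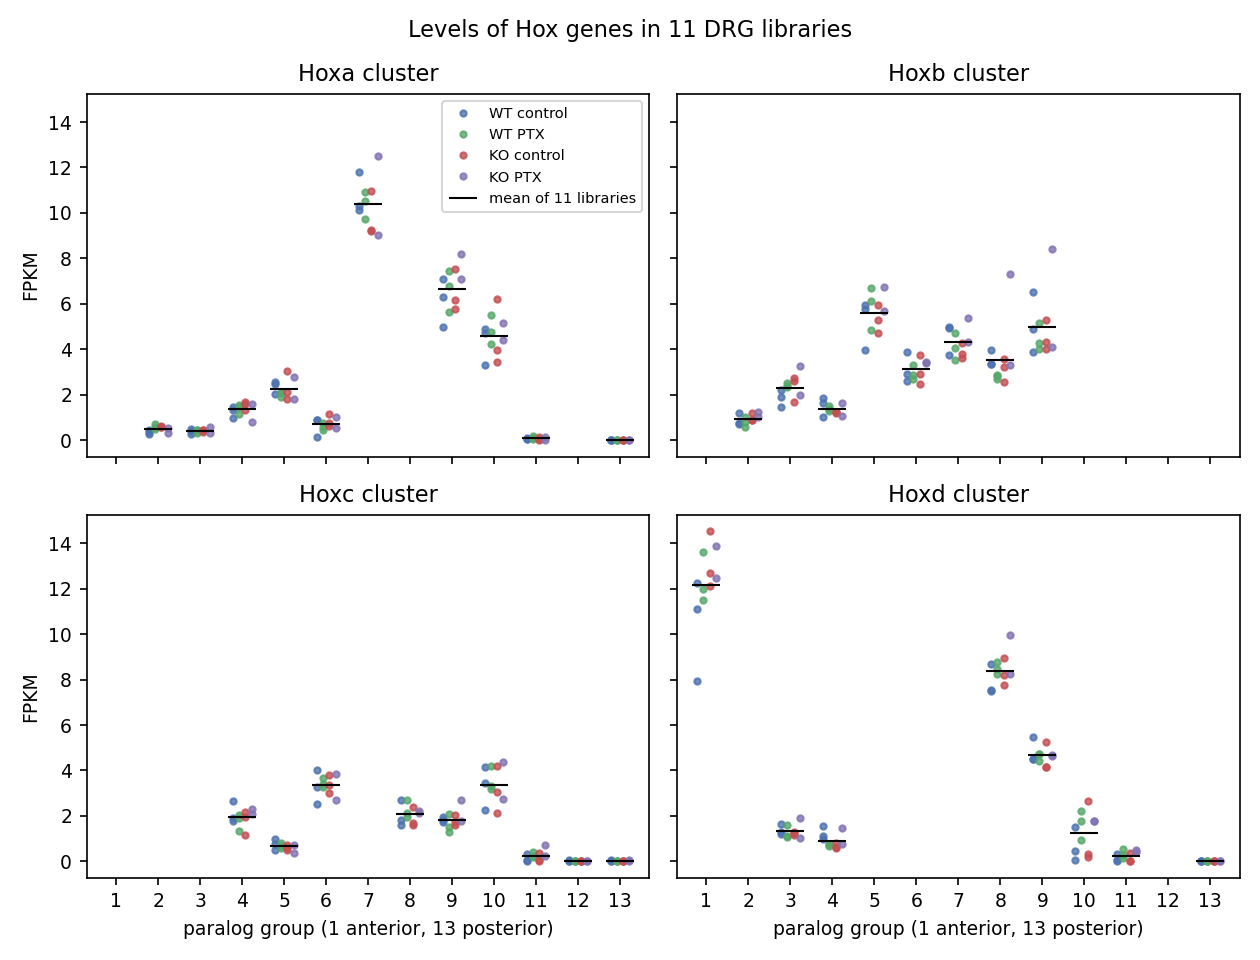
FPKM of the Hox members reported here (vertical axis) against its paralog group (horizontal axis), 1 panel per cluster; points are libraries coloured by group and black lines are means of 11 libraries. Hoxd1, at a mean of 12.2 FPKM, stands alone at the anterior end of its cluster, and levels drop between groups 10 and 11 in the Hoxa, Hoxc and Hoxd clusters.

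Of the 36 members, 29 had at least 1 count in every library, 22 had a mean above 1 FPKM and 5 had a mean above 5 FPKM. Hoxa13, which patterns digits and the hindgut, had 0 counts in all 11 libraries. At the shallowest library a count of 0 allows up to 3 counts, or 0.0569 CPM (counts scaled to library size alone), a limit that covers counting error only. Hoxc12 and Hoxd13 had a value above 0 in 1 library each, and Hoxc13 in 3. For tests, the 15087 genes with a mean of at least 0.5 FPKM were used, which kept 26 members. The 10 left out included Hoxa2, Hoxa3, Hoxa11, Hoxa13, Hoxc11, Hoxc12, Hoxc13, Hoxd11 and Hoxd13. This filter used the mean over all libraries and not a level in any one group. Of the members, 15 overlapped another annotated gene on the same strand and 14 overlapped an antisense gene, and 13 overlapped none. Levels of overlapping pairs are uncertain because the estimated counts could be split between them.

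Among the anterior members, Hoxd1 was the highest Hox gene in these ganglia. In the mouse Hoxd1 is expressed in developing nociceptors, the neurons that sense painful stimuli. The gene lies at chr2:74762980-74765142 of mm10 and overlaps no other gene. Its level was 12.2, 7.95 and 11.1 FPKM in WT controls 1 to 3 and 11.5, 13.6 and 11.97 FPKM in WT PTX 1 to 3. It was 14.5, 12.1 and 12.7 FPKM in KO controls 1 to 3 and 12.5 and 13.9 FPKM in KO PTX 2 and 3. WT control 2 was the lowest library, and the groups overlapped. Hoxd1 exceeded Hoxa7, the next gene in order, in 9 of 11 libraries. It was also higher than 88.8% of the genes with a value above 0.

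Hoxb2 and Hoxb3, which act in the hindbrain and neck of the embryo, were the highest members of groups 2 and 3. Hoxb2 was at 0.77, 0.70 and 1.19 FPKM in WT controls, 1.02, 0.79 and 0.59 in WT PTX, 0.88, 0.88 and 1.19 in KO controls and 1.04 and 1.25 in KO PTX. Hoxb3 was at 1.46, 1.92 and 2.19 FPKM in WT controls, 2.40, 2.52 and 2.33 in WT PTX, 2.74, 2.61 and 1.68 in KO controls and 1.97 and 3.27 in KO PTX. All WT PTX values of Hoxb3 lay above all WT control values, while the KO groups overlapped. Hoxd3 averaged 1.32 FPKM, and Hoxa2 and Hoxa3 averaged 0.495 and 0.412 FPKM.

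The middle groups, 4 to 8, held 52.1% ± 2.06 (SD, n = 11) of the Hox sum. Their highest members were Hoxa7, Hoxd8, Hoxb5 and Hoxb7, all of them genes of the thoracic and forelimb levels. Hoxa7 was at 10.3, 10.1 and 11.8 FPKM in WT controls, 10.9, 9.75 and 10.54 in WT PTX, 9.21, 9.24 and 10.97 in KO controls and 9.01 and 12.5 in KO PTX. Hoxd8 was at 7.51, 7.52 and 8.69 FPKM in WT controls, 8.77, 8.26 and 8.47 in WT PTX, 8.18, 7.74 and 8.93 in KO controls and 9.96 and 8.24 in KO PTX. Both genes overlapped between groups. Hoxa7 was above Hoxd8 in 10 of 11 libraries, and Hoxd8 was above Hoxa9 in all 11.

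Hoxb5, a gene of the brachial levels, was at 5.75, 3.96 and 5.96 FPKM in WT controls, 6.12, 4.83 and 6.70 in WT PTX, 5.27, 4.71 and 5.94 in KO controls and 5.70 and 6.74 in KO PTX. Hoxb7 was at 4.98, 3.74 and 4.92 FPKM in WT controls, 4.72, 3.51 and 4.07 in WT PTX, 3.62, 3.78 and 4.27 in KO controls and 4.30 and 5.37 in KO PTX. WT control 2 and WT PTX 2 were the lowest of their groups for both genes. The highest members of groups 4 and 6 were Hoxc4 and Hoxc6. Hoxc4 was at 1.79, 1.90 and 2.65 FPKM in WT controls, 1.89, 1.32 and 2.06 in WT PTX, 1.93, 1.17 and 2.18 in KO controls and 2.29 and 2.09 in KO PTX. Hoxc6, which marks the forelimb levels of the spinal cord, was at 2.52, 3.29 and 4.01 FPKM in WT controls, 3.65, 3.40 and 3.28 in WT PTX, 3, 3.34 and 3.79 in KO controls and 2.71 and 3.83 in KO PTX. Both KO PTX values of Hoxc4 lay above all WT PTX values, and its other groups and those of Hoxc6 overlapped. Hoxc8, the brachial gene of motor neurons that supply the forelimb, averaged 2.08 FPKM and stayed between 1.58 and 2.71.

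Hoxb8 set 1 library apart. Its regulatory region is used in a Cre line that is active in sensory neurons and spinal cord below the neck. The gene lies at chr11:96281905-96285315 and overlaps no other gene. It was at 3.34, 3.34 and 3.95 FPKM in WT controls, 2.87, 2.84 and 2.69 in WT PTX, 3.57, 2.57 and 3.24 in KO controls and 3.30 and 7.32 in KO PTX. KO PTX 3 held the highest value, while the other 10 libraries stayed between 2.57 and 3.95 FPKM. All WT PTX values of Hoxb8 lay below all WT control values. Its neighbor Hoxb9 showed the same library on top, at 3.86, 4.91 and 6.54 FPKM in WT controls, 3.99, 4.29 and 5.16 in WT PTX, 4.32, 4.01 and 5.30 in KO controls and 4.10 and 8.43 in KO PTX. The summed Hox level was also highest in KO PTX 3, at 118.7 FPKM against 82.7 to 106.2 FPKM in the others. Hoxa7, Hoxa9, Hoxb5, Hoxb7, Hoxc10 and Hoxd3, among other members, were highest in this library too.

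Members of groups 9 and 10 other than Hoxd10 were above 1 FPKM in every library. Hoxa9, the highest gene of group 9, was at 4.96, 6.32 and 7.09 FPKM in WT controls, 5.66, 6.77 and 7.46 in WT PTX, 5.76, 6.17 and 7.54 in KO controls and 7.10 and 8.20 in KO PTX. Hoxd9 was at 5.49, 4.51 and 4.51 FPKM in WT controls, 4.72, 4.72 and 4.41 in WT PTX, 4.16, 4.16 and 5.26 in KO controls and 4.70 and 4.63 in KO PTX. Hoxd9 varied by 8.76% around its mean (coefficient of variation, CV, n = 11), and 31.0% of tested genes varied less. Neighbors in the order of means from Hoxb9 to Hoxb7 could not be separated: Hoxb9 was above Hoxd9 in 6 of 11 libraries, Hoxd9 above Hoxa10 in 5 and Hoxa10 above Hoxb7 in 6.

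Hoxa10 and Hoxc10 are genes of the lumbar levels, where they pattern the nerves of the hind limb. Hoxa10 was at 3.30, 4.72 and 4.91 FPKM in WT controls, 4.22, 5.52 and 4.78 in WT PTX, 3.98, 3.44 and 6.21 in KO controls and 4.40 and 5.17 in KO PTX. Hoxc10 was at 2.28, 3.43 and 4.15 FPKM in WT controls, 3.33, 3.19 and 4.21 in WT PTX, 3.05, 2.13 and 4.19 in KO controls and 2.74 and 4.39 in KO PTX. Every library thus held RNA of both genes, with WT control 1 and KO control 2 lowest for each. Hoxa10 exceeded Hoxc10, and Hoxc10 exceeded Hoxd10, in all 11 libraries.

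Hoxd10 had the widest spread of the 26 tested members. It takes part in patterning lumbar motor neurons and the hind limb nerves. The gene lies at chr2:74691924-74695105 and overlaps the annotated gene Gm28309 on the same strand, as does Hoxd11. Hoxd10, Hoxd11 and Hoxc11 were singled out after their values were seen. Hoxd10 was at 0.47, 1.52 and 0.06 FPKM in WT controls 1 to 3 and at 0.94, 2.22 and 1.78 in WT PTX 1 to 3. It was at 0.31, 0.18 and 2.67 FPKM in KO controls 1 to 3 and at 1.79 and 1.76 in KO PTX 2 and 3. WT controls 1 and 3 and KO controls 1 and 2 were the 4 lowest libraries, and the highest library of all was also a control. The estimated counts behind these values ran from 8 in WT control 3 to 403 in KO control 3, so the low libraries are thinly counted.

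Hoxd10 varied widely within both control groups, from 0.06 to 1.52 FPKM in WT and from 0.18 to 2.67 FPKM in KO. Its CV was 71.9%, against a median of 19.8% for the 26 tested members and 11.3% for all tested genes. Of all tested genes, 98.6% had a lower CV. For Hoxb8, Hoxb9, Hoxc10 and Hoxa10 this share was 93.0%, 87.6%, 83.4% and 76.6%, and for Hoxd8 it was 28.5%. A CV under 30% was found in 22 of the 26 tested members. The biological coefficient of variation that edgeR fitted within groups was 0.831 for Hoxd10, above 99.4% of tested genes, with Hoxa6 next at 0.425.

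Relative to its neighbor Hoxd9, Hoxd10 was at 8.56%, 33.7% and 1.33% in WT controls, 19.9%, 47.0% and 40.4% in WT PTX, 7.45%, 4.33% and 50.8% in KO controls and 38.09% and 38.01% in KO PTX. The ratio to Hoxd9 therefore split the libraries as the level of Hoxd10 did. Sexes overlapped: the libraries labelled female were at 0.06, 1.78, 2.67 and 1.76 FPKM, and those labelled male ran from 0.18 to 2.22 FPKM.

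Hoxd11 and Hoxc11, genes of the lumbosacral transition, ran low in the same libraries. Hoxd11, at chr2:74679557-74687016, was at 0.07, 0.33 and 0 FPKM in WT controls, 0.13, 0.55 and 0.27 in WT PTX, 0.01, 0 and 0.38 in KO controls and 0.49 and 0.40 in KO PTX. Hoxc11, on another chromosome at chr15:102954427-102957708, was at 0.07, 0.33 and 0.03 FPKM in WT controls, 0.23, 0.42 and 0.20 in WT PTX, 0.07, 0 and 0.36 in KO controls and 0.74 and 0.25 in KO PTX. For both, WT controls 1 and 3 and KO controls 1 and 2 were again the 4 lowest. The 6 libraries highest in Hoxd10 were also the 6 highest in Hoxd11, and 5 of them were among the 6 highest in Hoxc11. Hoxa10 shared 5 of these 6 libraries, and Hoxc10 and Hoxd9 shared 4 each. Any sets of 6 among 11 libraries share some, and such overlaps were not counted over all genes, so nothing is concluded from these counts. Hoxd10 and Hoxd11 overlap the same annotated gene, and reads shared through it were not tested. Hoxc11 lies on another chromosome.

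**Figure D2:**
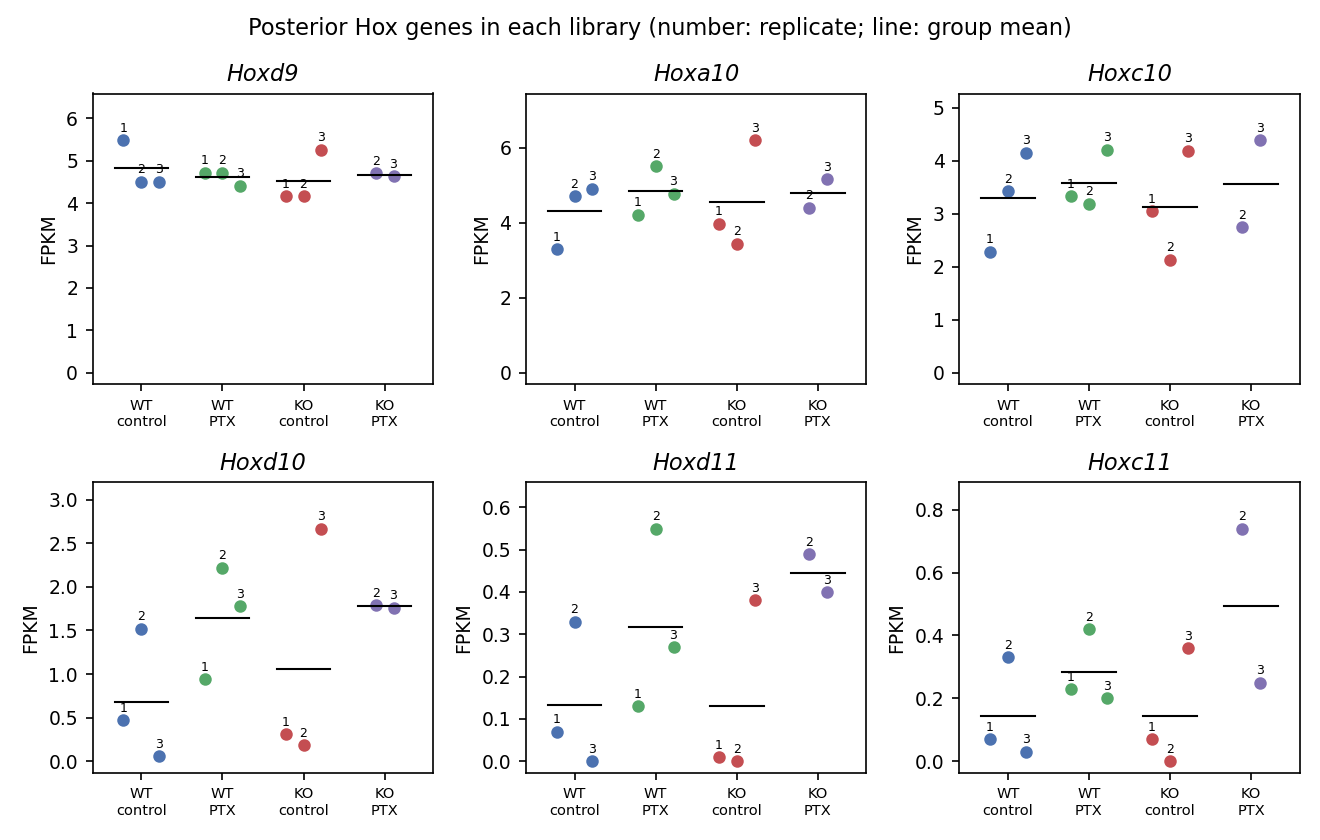
FPKM of 6 posterior Hox genes in each library (vertical axes, each from its own scale) by group (horizontal axes); numbers are replicates and lines are group means. Hoxd9, Hoxa10 and Hoxc10 are present in every library, while Hoxd10, Hoxd11 and Hoxc11 are at their 4 lowest in WT controls 1 and 3 and KO controls 1 and 2.

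Stretches of the start regions of genes named here show the letters of elements known to be bound by Hox proteins and, for Hoxd10, a CCAAT box. They come from RefSeq promoters of GRCm38.p6, which cover 250 bases before to 50 bases after a start. Of the members, 20 had 1 or more entries, with 22 promoters in all. Each stretch is 30 bases, written 5′ to 3′ on the strand of its gene, with the match in capitals. The element bound by Hox with its cofactor Pbx was searched as TGATTNAT, the element preferred by posterior Hox proteins as TTTACGA and the CCAAT box as CCAAT, each on both strands.
Hoxd11, Hox-Pbx element, chr2:74682239-74682268: ttaccaccagaATCAATCAagatgaattgc
Hoxd11, posterior Hox element, chr2:74679555-74679584: cccagtcagctTTTACGAgagctgccagac
Hoxb8, posterior Hox element, chr11:96281718-96281747: gaggaaagaacTCGTAAAatgctaacagct
Hoxa2, Hox-Pbx element, chr6:52164924-52164953: gacttttttggATCAATCAaacagacagtg
Hoxd10, CCAAT box, chr2:74691853-74691882: ttttcaaatctcATTGGcttggttgtcatg

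Hoxd11 has 2 alternative starts among these, and each of its matches belongs to a different start. The Hox-Pbx letters were in 3.22% of 32851 RefSeq promoters and in the promoters of 2 of the 20 members, Hoxa2 and Hoxd11. The posterior Hox letters were in 0.597% of all promoters and in those of 2 members, Hoxb8 and Hoxd11. The CCAAT box was in 37.4% of all promoters and in those of 13 members. A match is a description of the letters and not a binding site. The Hoxd10 window held neither Hox element, which says nothing about binding outside these letters.

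To put the members on 1 scale, the posterior share was computed as the summed FPKM of groups 9 to 13 in percent of all Hox FPKM. It was 25.5%, 32.1% and 28.5% in WT controls, 26.6%, 30.6% and 31.3% in WT PTX, 25.8%, 26.2% and 32.1% in KO controls and 29.8% and 30.4% in KO PTX. All libraries fell within 25.5% to 32.1%, and each control group covered most of that range. The share of groups 10 to 13 alone was 7.24%, 11.96% and 8.99% in WT controls, 9.57%, 12.6% and 11.7% in WT PTX, 8.25%, 6.97% and 13.2% in KO controls and 10.9% and 10.2% in KO PTX. WT controls 1 and 3 and KO controls 1 and 2 were the 4 lowest in this narrower share.

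Between groups, the posterior share moved by less than the spread within them. WT PTX averaged 29.5% ± 2.53 (SD, n = 3) and WT controls 28.7% ± 3.30 (n = 3), a difference of 0.758 percentage points against a pooled SD of 2.94. KO PTX averaged 30.1% ± 0.414 (n = 2) and KO controls 28.1% ± 3.52 (n = 3), a difference of 2.02 points against a pooled SD of 2.89. This difference ran from 0.917 to 4.05 as each library was left out, the highest without KO control 3. KO controls lay -0.673 points from WT controls, and KO PTX lay 0.594 points from WT PTX. The WT difference ran from -0.840 to 2.45 (2.45 without WT control 2, 2.20 without WT PTX 1) and turned without WT control 1 (-0.840) or WT PTX 3 (-0.146). That of KO against WT controls turned without WT control 2 (1.02), KO control 1 (0.435) or KO control 2 (0.251) and reached -2.70 without KO control 3 and -2.27 without WT control 1, and that of KO against WT after PTX turned without WT PTX 1 (-0.853). With the share counted from group 10 on, the PTX difference was 1.91 points in WT and 1.10 in KO, KO controls lay 0.062 points from WT controls and KO PTX -0.747 points from WT PTX, so both genotype differences turned. Without the highest member KO controls lay 0.312 points from WT controls, and a contrast of mean log2 levels of groups 9 to 13 and 4 to 8 was 0.062 there, also above 0. No test was run on this score.

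**Figure D3:**
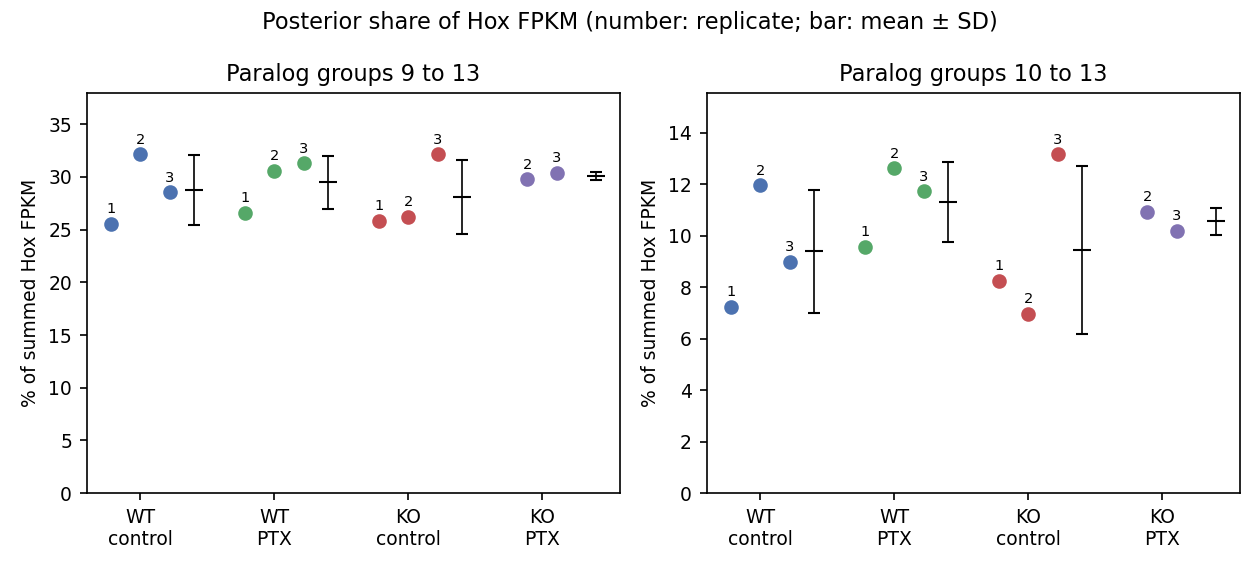
Share of summed Hox FPKM held by paralog groups 9 to 13 (left) and 10 to 13 (right), in percent (vertical axes), by group (horizontal axes); points are libraries with replicate numbers, and black bars are the mean ± SD. The left values run from 25.5% to 32.1%, and the 4 groups overlap in both panels.

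The libraries low in Hoxd10, Hoxd11 and Hoxc11 were also those with the highest sum of skeletal muscle markers. The 10 muscle markers summed to 689.6, 58.9 and 615.8 FPKM in WT controls, 102.5, 258.8 and 53.0 in WT PTX, 528.0, 727.0 and 177.5 in KO controls and 160.3 and 129.2 in KO PTX. The 4 highest libraries, between 528.0 and 727.0 FPKM, were WT controls 1 and 3 and KO controls 1 and 2, the same 4 that were lowest in Hoxd10. Acta1, the skeletal muscle actin, was at 168.2 and 153.3 FPKM in the former pair and at 136.1 and 206.5 FPKM in the latter. It ranged from 0.84 to 54.6 FPKM in the other 7. Myh1, 1 of the 10, went otherwise and was highest in KO control 3, at 2.89 FPKM. It was at 0.64 and 0.32 FPKM in WT controls 1 and 3, below 0.73 in WT PTX 1, and at 2 and 2.6 in KO controls 1 and 2. Pvalb, also of the 10, is a gene of proprioceptive neurons as well. These values stand side by side without a test, and the part of muscle in the Hoxd10 values was not tested.

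Central nervous tissue markers were highest in KO PTX 3, the library highest in Hoxb8, Hoxb9 and further members from all 4 clusters. Of 10 markers 9 were in the table and 3 passed the filter. They summed to 5.45, 1.61 and 2.06 FPKM in WT controls, 2.55, 2.11 and 5.87 in WT PTX, 2.01, 2.90 and 2.40 in KO controls and 6.41 and 18.7 in KO PTX. The next highest libraries were KO PTX 2, WT PTX 3 and WT control 1, at 6.41, 5.87 and 5.45 FPKM of these markers. They held 3.30, 2.69 and 3.34 FPKM of Hoxb8 and 4.10, 5.16 and 3.86 FPKM of Hoxb9. In KO PTX 3 Mobp, a gene of central myelin, was at 6.11 FPKM, the astrocyte glutamate transporter Slc1a2 at 4.98, Mog at 1.30 and Slc6a5 at 0.83. Chat, the enzyme of motor neurons, stayed at or below 0.02 FPKM in all libraries. The part of central tissue in the Hoxb8 and Hoxb9 values was not tested. The 3 limb field genes Tbx4, Tbx5 and Pitx1 summed to 0 to 0.10 FPKM, with Pitx1 at 0 in every library. Fibroblast and meninges markers summed to 89.2 to 179.6 FPKM. By edgeR no gene of these tissue lists passed in any comparison. By DESeq2 Tubb3, Fabp7 and Aqp4 passed for PTX in WT.

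**Figure D4:**
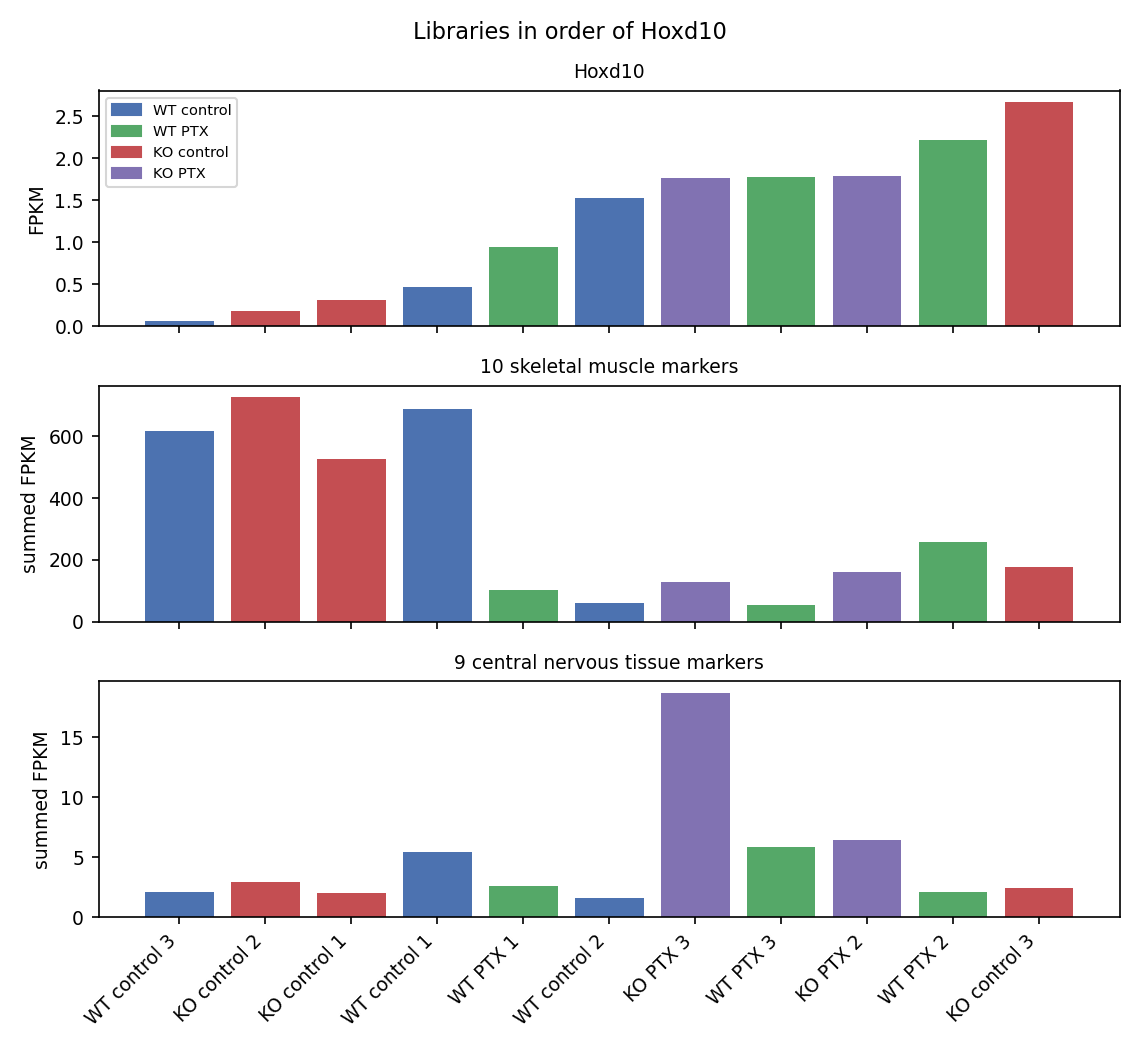
Hoxd10 FPKM (top), summed FPKM of 10 skeletal muscle markers (middle) and of 9 central nervous tissue markers (bottom) in the 11 libraries, ordered along the horizontal axis by Hoxd10 and coloured by group. The 4 libraries at the left, lowest in Hoxd10, hold 528.0 to 727.0 FPKM of muscle markers, and KO PTX 3 holds 18.7 FPKM of central nervous tissue markers.

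The comparison of PTX with control in WT mice asked whether Hox levels differed 4 weeks after PTX. No Hox gene passed the threshold, an adjusted p under 0.05 (edgeR's quasi-likelihood test, p-values adjusted by Benjamini-Hochberg over all 15087 genes). Of all genes tested, 0.00663% (1 gene) passed. At an unadjusted p under 0.05 stood 1 of 26 members, Hoxd4, where 13.5% of all genes did. Fold changes of 11 members lay above 0 and of 15 below, with a median log2 fold change of -0.06 against -0.01 over all genes. The balance turned to 15 above and 11 below without WT PTX 3 (median 0.09) and with the skeletal muscle score (median 0.04). By role, 4 of 7 members of groups 9 to 13, 5 of 15 of groups 4 to 8 and 2 of 4 of groups 1 to 3 lay above 0. All PTX values lay above all control values for Hoxb3 and below them for Hoxb8 and Hoxd4, 1 and 2 of 26, where 6.81% and 7.37% of all genes did.

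Hoxd4, a gene of the neck levels, had the lowest p in this comparison. It lies at chr2:74711929-74729160 and overlaps Hoxd3 on the same strand and Hoxd3os1 on the other, so its level is uncertain. It was at 1.55, 1.10 and 0.97 FPKM in WT controls and at 0.68, 0.76 and 0.70 in WT PTX. All 3 WT PTX values lay below all 3 control values. Its log2 fold change was -0.76 (SE 0.28) with an unadjusted p of 0.0233 and an adjusted p of 0.327 (edgeR), and without WT control 1 the fold change was -0.51. Hoxd10 had a log2 fold change of 1.10 (SE 1.06, edgeR adjusted p = 0.649), which ran from 0.33 to 2.58 as each library was left out in turn. The skeletal muscle markers had a median log2 fold change of -2.73 in the same comparison, and none of the 10 passed by edgeR or DESeq2 (0 and 7 at an unadjusted p under 0.05).

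In KO mice PTX was likewise compared with control. None of the members passed, and 0.00663% (1 gene) of all genes did. At an unadjusted p under 0.05 stood Hoxb8 and Hoxd4, 2 of 26, where 4.32% of all genes did. Fold changes lay above 0 for 20 members and below 0 for 6, with a median log2 fold change of 0.14 against -0.01 over all genes. The share of all genes above 0 was not counted. All 7 tested members of groups 9 to 13 lay above 0, from 0.04 for Hoxd9 to 0.96 for Hoxd10. This lean was smaller without KO PTX 3: 15 members then lay above 0 and 11 below, with a median of 0.08. Without KO PTX 2 the numbers were 22 and 4, with a median of 0.19. Either fit leaves a lone library in the KO PTX group. With the central nervous tissue score in the model, the numbers were 14 and 12. The 6 fibroblast and meninges markers all lay below 0 in this comparison, with a median log2 fold change of -0.59 (-0.91 to -0.36). Of these, 4 stood at an unadjusted p under 0.05 by edgeR and 6 by DESeq2, and none passed. They summed to 163.2, 143.4 and 179.6 FPKM in KO controls and to 89.2 and 151.5 FPKM in KO PTX, and their part in the lean was not tested. The 3 tested central nervous tissue markers had a median log2 fold change of 3.08, all 3 at an unadjusted p under 0.05 (edgeR). The 10 skeletal muscle markers had a median of -1.55, with 1 at such a p. None of these markers passed by edgeR or DESeq2. Hoxb7 alone had both PTX values above all controls and no member had them below, where 11.3% and 10.4% of all genes did. The Hoxd10 value ran from 0.29 to 3.29 as each library was left out, the highest without KO control 3, and was 0.27 with the skeletal muscle score in the model.

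Hoxb8 had the lowest p here, with a log2 fold change of 0.67 (SE 0.25, unadjusted p = 0.0233, edgeR adjusted p = 0.999). The means were 3.13 ± 0.510 FPKM in KO controls (SD, n = 3) and 5.31 ± 2.84 in KO PTX (n = 2), and the 2 KO PTX values were 3.30 and 7.32. Without KO PTX 3 the log2 fold change was 0.10, and with the central nervous tissue score in the model 0.11. Hoxd4 was at 0.81, 0.59 and 0.61 FPKM in KO controls and at 0.77 and 1.46 in KO PTX, and these groups overlapped. Its log2 fold change was 0.73 (SE 0.32, unadjusted p = 0.0473, edgeR adjusted p = 0.999). It was 0.12 without KO PTX 3 and 1.28 without KO PTX 2, and it turned to -0.29 with the central nervous tissue score.

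The comparison of KO with WT controls asked whether the deletion alone went with another Hox profile. No member passed, where 0.00663% (1 gene, Gpr37l1 itself) of all genes did. At an unadjusted p under 0.05 stood Hoxd4 alone, 1 of 26, where 7.54% of all genes did. With the replicate number as a block Hoxd1 joined it, 2 of 26, where 1060 of 15087 genes did (edgeR). Fold changes lay above 0 for 11 members and below 0 for 15, with a median of -0.05 against 0.003 over all genes. The median turned to 0.0087 without KO control 2, with 13 members on each side, and was -0.13 without WT control 3 and -0.12 without KO control 3. All 3 KO control values of Hoxd4 lay below all 3 WT control values, with a log2 fold change of -0.84 (SE 0.28, unadjusted p = 0.0139, edgeR adjusted p = 0.657). It was the only member to separate these groups, where 4.55% of all genes lay wholly above and 4.73% wholly below. Hoxd1 lay higher in KO controls, at 13.1 ± 1.27 FPKM (SD, n = 3) against 10.4 ± 2.22 (n = 3), without passing (log2 fold change 0.33, SE 0.15, edgeR adjusted p = 0.659). The groups overlapped, with KO control 2 at 12.1 FPKM and WT control 1 at 12.23. In every same-numbered pair the KO library was the higher, which was not counted over all genes. Hoxd10 had a log2 fold change of 0.17 with an SE of 1.22, and its direction turned as single libraries were left out.

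After PTX, KO and WT mice also showed no member past the threshold, where 0.0133% (2 genes) of all genes passed. At an unadjusted p under 0.05 stood Hoxb8, 1 of 26, where 3.55% of all genes did. Fold changes lay above 0 for 18 members and below 0 for 8, with a median of 0.10 against -0.01 over all genes. Here too the share of all genes above 0 was not counted. Without KO PTX 3 the numbers were 15 and 11 with a median of 0.02, and without KO PTX 2 they were 19 and 7 with a median of 0.18. Without WT PTX 3 they were 14 and 12 with a median of 0.03, and with the central nervous tissue score 14 and 12. For Hoxb8 the values were 2.80 ± 0.096 FPKM in WT PTX (SD, n = 3) and 5.31 ± 2.84 in KO PTX (n = 2), without overlap. Hoxb2, Hoxb6, Hoxc4 and Hoxd4 also had both KO values above all WT values, 5 of 26 with Hoxb8, where 10.7% of all genes did, and no member had them below, where 9.58% did. The log2 fold change of Hoxb8 was 0.82 (SE 0.25, unadjusted p = 0.00821, edgeR adjusted p = 0.993). Without KO PTX 3 it was 0.25, without KO PTX 2 it was 1.35, and with the central nervous tissue score in the model 0.33.

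The difference of the PTX effect between genotypes, KO minus WT, was tested as an interaction term. None of the members passed, where 0.00663% (1 gene) of all genes did. At an unadjusted p under 0.05 stood Hoxb8 and Hoxd4, 2 of 26, where 6.3% of all genes did. Hoxd4 had a log2 difference of 1.48 (SE 0.43, unadjusted p = 0.00581, edgeR adjusted p = 0.724). Without KO PTX 3 it was 0.87, without KO PTX 2 it was 2.03, and with the central nervous tissue score in the model 0.46. Hoxb8 had a log2 difference of 0.99 (SE 0.33, unadjusted p = 0.0139, edgeR adjusted p = 0.724). It was 0.44 without KO PTX 3, 1.54 without KO PTX 2 and 0.46 with that score. With that score Hoxa4 alone stood at an unadjusted p under 0.05 (edgeR). These comparisons share their control and PTX groups, so they are not separate evidence.

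**Figure D5:**
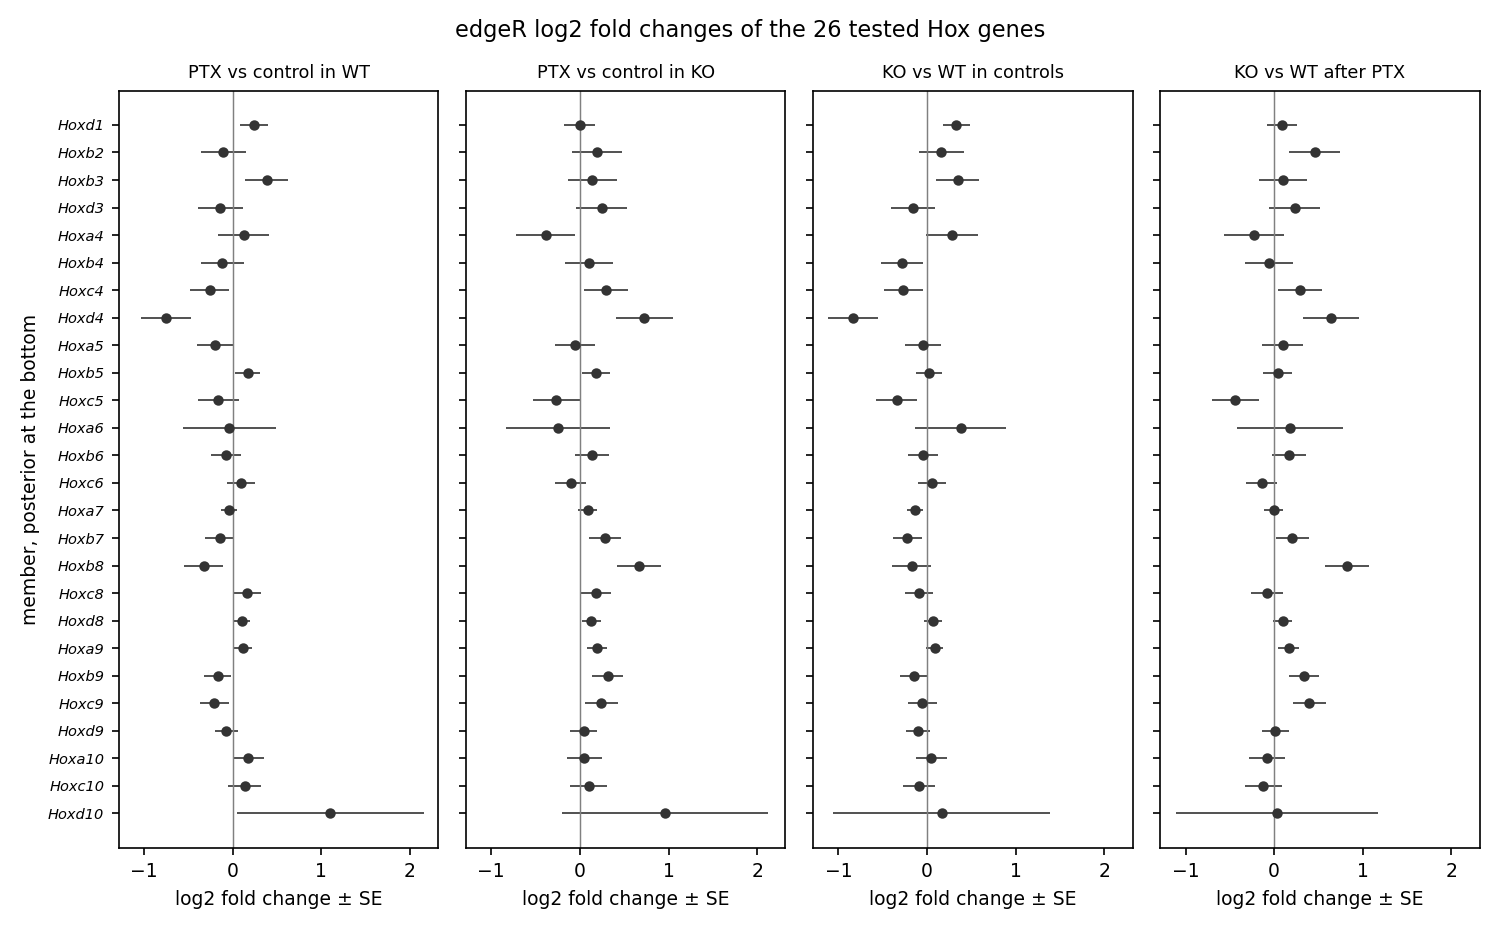
Log2 fold changes with SE (horizontal axes, edgeR) of the 26 tested Hox members (vertical axis, paralog group 1 at the top and 10 at the bottom) in 4 comparisons. No member passes an adjusted p under 0.05, and Hoxd10 has the widest error, with an SE of 1.06 in the first panel.

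Across 22 ways of fitting the data, that is the fit described and 21 alternatives, no member passed in any of 110 combinations of fit and comparison. The lowest adjusted p of any member in any of them was 0.152, for Hoxb8 in KO against WT after PTX without KO PTX 2. That fit leaves KO PTX 3 as the lone library of its group, which is assumed to vary like the other groups. DESeq2 called no member either, with 1, 2, 2, 1 and 3 members at an unadjusted p under 0.05 in the 5 comparisons in the order given. Over all genes DESeq2 called 2.05%, 0.192%, 0.278%, 0.0663% and 0.0795% in these comparisons, and 15.1%, 4.82%, 8.52%, 3.94% and 7.35% stood at an unadjusted p under 0.05. Counts of called genes over the whole table did move when the level of Hoxd10 was put in the model: from 1 to 10 for PTX in WT and from 1 to 5 for KO against WT controls. Hoxd10 itself could not pass in those fits, since its own level was in the model.

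Genes that work with or upstream of Hox factors were read from the same fit. The 9 Pbx, Meis and Pknox genes, whose products bind DNA together with Hox proteins, summed to 39.4 to 44.7 FPKM, and Pbx2 was the highest with a mean of 14.7 FPKM. None of the 9 passed in any comparison by edgeR or DESeq2. At an unadjusted p under 0.05 (edgeR) stood 3 of 9 for PTX in WT (Meis2, Meis3 and Pbx3), 1 for PTX in KO, 2 for KO against WT controls, 0 after PTX and 1 for the interaction, where 13.5%, 4.32%, 7.54%, 3.55% and 6.3% of all genes did. Their median log2 fold change was highest for PTX in WT, at 0.16 against -0.01 over all genes. The 22 Polycomb and Trithorax genes keep Hox genes silent or active through chromatin. All 22 were tested, and none passed in any comparison by edgeR or DESeq2, with 3, 0, 1, 0 and 1 of the 22 at an unadjusted p under 0.05 (edgeR), to be read against the same shares of all genes. Men1, with a mean of 15.8 FPKM, was the highest of them. Of 12 genes that set up Hox expression in the embryo 11 were in the table and 7 were tested. None passed by either tool, with 0 at an unadjusted p under 0.05 by edgeR and 1, for PTX in KO, by DESeq2. Rarg, a retinoic acid receptor, was the highest at 9.44 FPKM, and Cdx2, an early inducer of posterior Hox genes, was at 0 in every library.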

How the data were processed

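Poly(A) libraries of mouse DRGs from 11 samples were analysed from 1 table. Per the labels, reads were handled with cutadapt, FastQC, HISAT2 and StringTie on mm10, with versions not given in the sources used here. The authors deposited FPKM values, scaled for gene length and library size, and estimated counts without normalization. StringTie-type counts are estimates that can be split between overlapping genes. Groups and replicate numbers follow the descriptions. The titles number the KO PTX libraries differently.

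Estimated counts were rounded and fitted with edgeR 4.0.16 in R 4.3.3 (TMM, quasi-likelihood, 4 group means and labelled sex, all 11 libraries). Genes with a mean of at least 0.5 FPKM were tested and p-values were adjusted by Benjamini-Hochberg over 15087 genes. The SE of a log2 fold change is its size over the root of the F statistic. Alternatives were DESeq2 1.42.0, limma 3.58.1 on log2(FPKM + 1) or log2(FPKM + 0.1), RLE size factors, no filter, no sex term, replicate number as a block, tissue scores (mean log2(FPKM + 1) of a list) as covariates, and each library left out. Tables used Python 3.11.15 with pandas 2.3.3.

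The model was tested on simulated data with 200 of 15087 genes changed. It recovered 71.5% of 2-fold changes for PTX in WT (12 false calls), 70.5% in the PTX comparison of KO mice (7) and 71.5% in that of control genotypes (11). Of 4-fold changes it recovered 98%, 95.5% and 98% (false calls 14, 9 and 11). Spread was drawn from the trend over all genes, while 23 of 26 tested members had a fitted variation above the median gene, so these shares are not those of the members.

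Replicate numbers come from the descriptions. Deviations from the group means correlated by 0.113, 0.116 and 0.230 between same-numbered WT and KO controls, and number 3 is also the labelled sex. Same-numbered values were -0.027, -0.164 and 0.036 for WT controls and WT PTX and 0.068, -0.025 and 0.115 for WT PTX and KO controls. KO PTX 2 and 3 correlated by 0.107 and 0.253 with WT controls, 0.048 and 0.164 with WT PTX and 0.074 and 0.087 with KO controls. Differently numbered libraries reached 0.170 (WT control 1 and WT PTX 2), so these small values cannot establish a pairing by number.

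The members, gene lists and tests were chosen with earlier results of these data known. Named members were the 10 with the highest means, the highest of each paralog group with a mean of at least 0.5 FPKM, and the member with the lowest p where none passed. Hoxd10, Hoxd11, Hoxc10 and Hoxc11 were added after their values were seen. Columns of the table other than FPKM and estimated counts were used only to name genes. One member is not reported here.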

Additional observations from a re-analysis of the deposited data

Results flagged for a closer look

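Of 14 rows outside the fit, 10 Hox members under the filter and 4 non-coding rows of the clusters, 3 had all PTX values of 1 genotype above all of its controls. Hoxa2 was at 0.48 FPKM or more in WT PTX, with a highest value of 0.72, while WT controls reached 0.43. Hoxd11 was at 0.40 FPKM or more in KO PTX, with a highest value of 0.49, while KO controls reached 0.38. Hotair, a long non-coding RNA of the Hoxc cluster, was at 0.14 FPKM or more in KO PTX, with a highest value of 0.24, while KO controls reached 0.05. The other direction was found in 2 cases, for Hoxa2 in KO PTX, at 0.30 and 0.55 FPKM against 0.56 to 0.62 in KO controls, and for Hoxaas3 in WT PTX, at 0.13 to 0.16 FPKM against 0.18 to 0.33 in WT controls. Of 19046 genes under the filter with a value above 0, 2.28% lay above and 2.49% below all controls in WT PTX, where 1 of the 14 rows did each way, and 6.57% and 4.55% in KO PTX, where 2 and 1 of the 14 did. These few rows were picked out by the separation itself. Hoxa2 thus lay above control in WT PTX and below control in KO PTX, where its highest value was 0.55. In the alternative without the FPKM filter the difference of its PTX effect, KO minus WT, was -1.30 on the log2 scale (SE 0.52, unadjusted p = 0.0274, edgeR adjusted p = 0.978). In that fit Hoxd11 in KO PTX had an edgeR adjusted p of 1, as had Hotair. For PTX in WT, where all controls and 1 of 3 PTX libraries were at 0, Hotair had an unadjusted p of 0.00912 and an edgeR adjusted p of 0.536.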

How the results depend on the processing

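No Hox member was called under any of the alternatives. Counts of genes called over the whole table did move. For PTX against control in WT, 1 gene was called by edgeR against 309 by DESeq2, 2 without the FPKM filter, 0 without the sex term, 0 by limma with either pseudocount, 11 with the skeletal muscle score and 10 with the Hoxd10 level, an alternative chosen after seeing the data. The Hoxd10 level gave 5 genes for KO against WT controls in place of 1. DESeq2 called 29 genes for PTX in KO, 42 for KO against WT controls, 10 for KO against WT after PTX and 12 for the difference of the PTX effect. The muscle score gave 4 for KO against WT after PTX in place of 2. The causes were not tested.

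With 1 library left out, genes called ran from 0 to 30 for PTX in WT (30 without WT control 3, 7 without WT control 2, 6 without KO control 2 and 0 without WT control 1, WT PTX 1, WT PTX 2 or KO PTX 3), 1 to 7 for PTX in KO (7 without KO control 2 or KO PTX 2), 1 to 4 for KO against WT controls (4 without KO control 3), 2 to 7 for KO against WT after PTX (7 without KO PTX 2) and 1 to 6 for the difference of the PTX effect (6 without KO PTX 2).

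The log2 fold change of Hoxd10 for KO against WT controls turned to -0.39 with the central nervous tissue score, moved from 0.17 to 1.15 with the skeletal muscle score and ran from -1.54 to 1.58 with libraries left out, the lowest without KO control 3. For PTX in KO it moved from 0.96 to 0.27 with the muscle score and to 2.63 with the central nervous tissue score. For KO against WT after PTX it ran from -0.46 to 0.51 with libraries left out, and moved from 0.03 to 1.24 with the central nervous tissue score. For the difference of the PTX effect it turned to 1.63 with that score and ran from -1.57 to 1.76 with libraries left out. The log2 fold change of Hoxd4 for PTX in KO turned to -0.29 with the central nervous tissue score. With 8 counts in its lowest library, Hoxd10 limits what can be seen.

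The replicate block changed no call. Same-numbered libraries of different groups correlated by 0.080 on average (-0.164 to 0.253 over 15 pairs, 7 of them over 0.1) against -0.040 for the others. With the replicate block the genes called stayed at 1, 1, 1, 2 and 1 with 0 Hox members, and the Hoxd10 log2 fold change for KO against WT after PTX turned to -0.25.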

Other observations

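The non-coding rows of the Hox clusters gave levels below most coding members. Hoxb3os was at 1.19, 0.67 and 1.21 FPKM in WT controls, 0.50, 0.77 and 0.48 in WT PTX, 0.56, 0.59 and 1.38 in KO controls and 0.26 and 0.56 in KO PTX. Its groups overlapped. Hoxd3os1 stayed between 0.66 and 0.93 FPKM. Hotair lies between Hoxc11 and Hoxc12 and was at 0 FPKM in all WT controls, 0.13, 0.22 and 0 in WT PTX, 0, 0 and 0.05 in KO controls and 0.14 and 0.24 in KO PTX. The 5 libraries with a value above 0 were all among the 7 highest in Hoxd10. This cut at 7 differs from the cut at 6 used for the other genes, and such overlaps were not counted over all genes.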
